A study of Mus musculus with 2 samples.

Results

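The 10 genes described here encode the pathway that displays peptides from inside the cell on MHC class I molecules: the heavy chains H2-K1, H2-D1 and H2-T23, their light chain B2m, the peptide transporter subunits Tap1 and Tap2, the loading factor Tapbp, the immunoproteasome subunits Psmb8 and Psmb9, and the transactivator Nlrc5. They were chosen by name, for their role, and are 10 of the 55536 genes with Ensembl identifiers in the deposited tables, of which 22028 are protein-coding. RNA had been taken from the nuclei, called the nucleoplasmic fraction in the labels, of macrophages grown from bone marrow of C57BL/6J mice, an inbred laboratory strain. All cells had received Lipid A, the membrane anchor of bacterial endotoxin and a ligand of TLR4, at 100 ng/ml for 12 h, had rested without it for 12 h, and had received 100 ng/ml again for 40 min before collection. This is the only group, with 2 libraries named biological replicates 1 and 2, so the values describe restimulated cells and not a change from an unexposed or singly exposed state. Library 1 was made from 1000 ng of RNA and library 2 from 500 ng. Both carry the same donor entry, and the sex and age of the animals were not collected, so the spread between the libraries may be technical.

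Class I molecules consist of a polymorphic heavy chain, the invariant light chain beta-2 microglobulin and a short peptide. Proteasomes cut cytosolic proteins into peptides, the TAP transporter carries these into the endoplasmic reticulum, and tapasin holds empty class I molecules at the transporter until a fitting peptide binds. Interferons and Toll-like receptor signals are known to raise transcription of the pathway, and class I promoters are known for kappaB, interferon response and SXY elements. NLRC5 acts on the SXY element together with DNA-binding factors.

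Expected counts on named genes summed to 19797829 in library 1 and 17213606 in library 2, so 3 counts, the floor for a gene at 0, were 0.152 and 0.174 CPM (counts scaled to the library total). The mitochondrial share of counts was 2.63% in library 1 (Wilson 95% interval 2.62 to 2.63) and 6.6% in library 2 (6.59 to 6.61), with intervals for counting error only. Nuclear protein-coding genes held 27.9% of all TPM (a level scaled by transcript length and by the total of the table) in library 1 and 21.8% in library 2. The libraries therefore stood apart in composition. Every one of the 8 macrophage markers ranked among the highest 10% of detected protein-coding genes, with summed TPM of 3116 in library 1 and 2480 in library 2. The summed TPM of 5 B cell, 5 natural killer cell, 5 neutrophil, 6 dendritic cell and 5 fibroblast markers each lay at 1.67 or below in either library, with Pax5, Klrb1c, Eomes, Ly6g, Elane, Cd209a and Dcn at 0. The 6 T cell markers summed to 20.1 TPM in library 1 and 23.1 in library 2; of these, Cd3e and Cd3g were at 0 and Cd4 had 19.8 TPM in library 1 and 23 in library 2. The 5 endothelial markers summed to 15.5 and 10.8 TPM; of these, Emcn was at 0 and Kdr had 12.8 and 9.59 TPM.

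All 10 genes reached the minimum for detection, which was 10 expected counts in each library, against 49.9% of all protein-coding genes. By mean TPM 8 of the 10 belonged to the highest 10% of detected protein-coding genes, which began at 42.6 TPM; the background share is 10% by construction, and 7 of the 10 were there by TPM of protein-coding transcripts. The median of the 10 genes was 258 TPM in library 1 and 179 in library 2, at percentile 98.5 ± 0.129 (SD, n = 2), while the median detected protein-coding gene had 6.38 TPM. The 10 genes summed to 1.05% of expected counts in library 1 (1.05 to 1.06) and 0.9% in library 2 (0.895 to 0.904), and H2-K1 with H2-D1 alone summed to 0.676% (0.673 to 0.68) and 0.565% (0.561 to 0.568). In these bulk libraries fewer cells with a transcript and less of it per cell cannot be told apart.

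**Figure D1:**
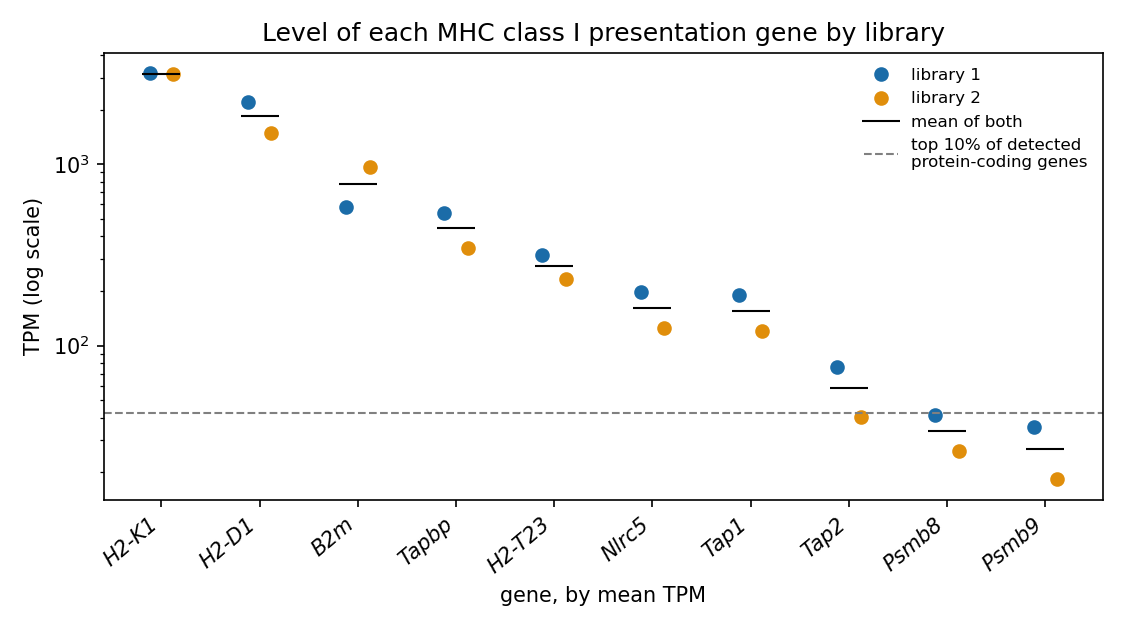
TPM of the 10 genes on a log scale, with points for library 1 (left) and library 2 (right), a bar at their mean and a dashed line at 42.6 TPM, where the highest 10% of detected protein-coding genes begin. Levels ran from H2-K1, at 3170 and 3144 TPM, to Psmb9, at 35.7 and 18.3 TPM; B2m was the gene with the clearly higher point in library 2.

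The classical heavy chain genes were the highest of the pathway. H2-K1 (chr17:33996017-34000347, minus strand, mm10) had 3170 TPM in library 1 and 3144 in library 2, the 7th highest mean among detected protein-coding genes. These levels are RSEM TPM. Kallisto TPM of H2-K1 was lower and less even, at 722 in library 1 and 1576 in library 2. This was not particular to H2-K1, since each of the 8 macrophage markers was also lower by kallisto TPM in both libraries. Lyz2, for example, had 1421 and 1201 TPM by RSEM and 323 and 639 by kallisto. H2-D1 (chr17:35262730-35267499, plus strand) had 2196 and 1491 TPM, at rank 11. H2-K1 and H2-D1 are the 2 classical class I loci of this strain, and their products present peptides to CD8 T cells. H2-K1 was above H2-D1 by TPM in both libraries and the ranges did not overlap. By expected counts, which are not divided by length, H2-D1 was above H2-K1, with 72149 counts in library 1 and 54067 in library 2 for H2-D1 against 61759 and 43145 for H2-K1. The deposited credibility interval of H2-K1, whose level is not stated, ran from 2966 to 3053 TPM in library 1 and from 2954 to 3045 TPM in library 2. Both intervals lay below the deposited maximum-likelihood TPM, and the deposited posterior means were 3009 and 2999 TPM. This was not particular to H2-K1. The intervals of H2-D1, H2-T23, B2m, Tap1 and Tapbp also lay below their TPM in both libraries. Those of Psmb8, Psmb9, Nlrc5 and, in library 2, Tap2 included it.

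How reads are divided between the heavy chain genes depends on where their sequences differ. The coding sequences of H2-K1-201 and H2-D1-202, the protein-coding transcripts with most TPM, matched at 988 of 1080 aligned bases (91.5%). H2-T23-201 matched H2-K1-201 at 83.8% and H2-D1-202 at 81.9% of aligned bases. The window of 60 bases with most differences is printed to show where a read can tell the 2 genes apart, and the longest identical run, of 91 bases, to show where it cannot. Both come from the GENCODE M21 transcripts, positions count from the A of the start codon, and capitals mark the 15 bases that differ.
H2-K1-201, coding bases 492 to 551: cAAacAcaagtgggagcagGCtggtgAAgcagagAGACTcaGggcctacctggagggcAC
H2-D1-202, coding bases 501 to 560: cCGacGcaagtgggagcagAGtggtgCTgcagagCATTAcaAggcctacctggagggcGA
H2-K1-201, coding bases 738 to 828, identical in H2-D1-202 at 747 to 837: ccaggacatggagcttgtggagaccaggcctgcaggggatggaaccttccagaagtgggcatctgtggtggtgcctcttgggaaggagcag
Over the whole transcripts, 8.79% of the 50-base words of H2-K1-201 also occurred in transcripts of other genes, most often of H2-D1 (6.94%). For H2-D1-202 the share was 14.3%, with H2-Q1 as the most frequent (7.4%), and for H2-T23-201 it was 28.8%, with H2-T-ps as the most frequent (12.9%). The levels of the heavy chains are uncertain where reads fall in shared words. The shares do not measure the size of that error, which was not tested. B2m-201, Psmb8-203, Psmb9-204 and Nlrc5-207 shared no 50-base word with another gene, and the shares of Tap1-206, Tap2-201 and Tapbp-206 were 0.861%, 0.737% and 2.24%.

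The order of H2-K1 and H2-D1 by TPM depended on which transcripts were counted, and the transcript of H2-K1 with most TPM was a short one. H2-K1-215, of 457 nt and annotated as a retained intron, held 938 TPM in library 1 and 1998 in library 2, which was 29.6% and 63.6% of the TPM of the gene but 8.25% and 24.8% of its counts. Of its bases 398 lie in exon 8 and 39 in exon 7 of the 8 exons of H2-K1-201, and 20 lie in intron 6, so that most of it is sequence at the 3′ end which the coding transcript also holds. H2-K1-201, of 1619 nt, held 1206 TPM in library 1 and 754 in library 2. Without H2-K1-215, H2-K1 had 2232 TPM in library 1 and 1146 in library 2, against 2196 and 1491 TPM for H2-D1. H2-K1 was then 50.4% of the sum of both genes in library 1 and 43.5% in library 2. This drops the 5094 and 10702 expected counts given to H2-K1-215 and does not reassign them to other transcripts of H2-K1, so it can only lower H2-K1. Counting protein-coding transcripts only, which also leaves out the other retained-intron transcripts and a processed transcript of H2-K1, H2-K1 had 1641 TPM in library 1 and 898 in library 2, and H2-D1 had 2106 and 1410 TPM. The share of H2-K1 in the sum of both genes was 59.1% in library 1 and 67.8% in library 2 by all transcripts, a mean of 63.5% ± 6.19 (SD, n = 2). By protein-coding transcripts it was 43.8% and 38.9%, and by expected counts 46.1% and 44.4%. H2-D1 itself was nearly all protein-coding: H2-D1-202 held 77.9% of its TPM in library 1 and 82.7% in library 2, and H2-D1-203, of 391 nt, held 16.5% and 10.3%.

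H2-T23 and the light chain gene B2m stood below the classical heavy chain genes by mean TPM. H2-T23 (chr17:36029773-36032855, minus strand), which encodes the non-classical heavy chain Qa-1 that presents leader peptides of other class I chains to NKG2 receptors, had 317 TPM in library 1 and 233 in library 2, at percentile 98.9. B2m (chr2:122147686-122153083, plus strand), the light chain gene, had 583 TPM in library 1 and 963 in library 2, at percentile 99.7. It was the only one of the 10 genes with fewer expected counts in library 1, 8192 against 13921. Its single annotated transcript, B2m-201, held all of its TPM. The summed TPM of H2-K1 and H2-D1 was 9.21 times that of B2m in library 1 and 4.81 times in library 2. With protein-coding transcripts only the ratio was 6.43 and 2.4, and with kallisto TPM 7.62 and 4.34, so heavy chain RNA exceeded light chain RNA in both libraries on each of these scales.

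The promoters of H2-K1 and H2-D1 are printed because motifs of the elements known from class I genes lie in them in the same order. The sequences are the 250 bases before the start site in RefSeq (GRCm38.p6), for H2-K1 in the first listed of its 2 windows, and capitals mark matches to 5 motifs searched on both strands: GGGATTCCC (core of the kappaB element of enhancer A), TTTCACTTC (core of the class I interferon response element), GAAANNGAA (core of the interferon-stimulated response element), TGACG (core of the X2 box) and CCAAT (core of the Y box, ATTGG on the other strand). No match of 1 motif overlapped another.
H2-K1, chr17:34000348-34000597, minus strand: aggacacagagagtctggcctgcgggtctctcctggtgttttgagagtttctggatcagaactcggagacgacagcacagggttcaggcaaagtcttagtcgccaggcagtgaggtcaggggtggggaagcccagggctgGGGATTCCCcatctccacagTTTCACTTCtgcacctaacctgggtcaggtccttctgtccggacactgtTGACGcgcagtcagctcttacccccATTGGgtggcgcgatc
H2-D1, chr17:35262844-35263093, plus strand: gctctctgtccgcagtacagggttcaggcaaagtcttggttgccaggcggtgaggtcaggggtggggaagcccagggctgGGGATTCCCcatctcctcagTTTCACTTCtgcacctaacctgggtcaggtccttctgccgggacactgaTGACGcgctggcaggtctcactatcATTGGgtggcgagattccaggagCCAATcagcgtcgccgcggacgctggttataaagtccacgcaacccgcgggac
B2m, chr2:122147437-122147686, plus strand: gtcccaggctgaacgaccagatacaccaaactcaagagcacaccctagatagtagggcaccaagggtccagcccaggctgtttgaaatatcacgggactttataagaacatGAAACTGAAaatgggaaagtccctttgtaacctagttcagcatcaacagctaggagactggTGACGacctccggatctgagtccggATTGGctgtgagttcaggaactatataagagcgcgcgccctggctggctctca
Tap1, chr17:34187306-34187555, plus strand: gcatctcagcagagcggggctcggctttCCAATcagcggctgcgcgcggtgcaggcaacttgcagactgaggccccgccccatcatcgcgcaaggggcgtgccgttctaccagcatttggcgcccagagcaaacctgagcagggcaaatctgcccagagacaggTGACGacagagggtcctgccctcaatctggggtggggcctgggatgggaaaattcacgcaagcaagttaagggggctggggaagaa
In H2-K1 the kappaB match lay 110 to 102 bases, TTTCACTTC 90 to 82, TGACG 41 to 37 and CCAAT 16 to 12 bases before the start. In H2-D1 these lay at 170 to 162, 150 to 142, 101 to 97 and 76 to 72, with another CCAAT at 53 to 49. The H2-D1 window lies inside the GENCODE M21 annotation of the gene, where H2-D1-202 starts at chr17:35262730. Its positions therefore count from the RefSeq start and are not upstream of the start of H2-D1-202. Of 32851 RefSeq windows of this length 0.301% held GGGATTCCC, 0.402% TTTCACTTC, 7.13% GAAANNGAA, 17.8% TGACG and 33.8% CCAAT. The kappaB core was in 99 windows, and the windows that held it with TTTCACTTC, TGACG and CCAAT were 4, of the 3 genes H2-K1, H2-D1 and H2-Q7. These motifs were taken from elements known in class I genes, so finding class I genes among their holders was partly fixed by that choice. B2m held GAAANNGAA at 139 to 131, TGACG at 78 to 74 and CCAAT at 53 to 49. Tap1 held TGACG at 86 to 82 and CCAAT at 222 to 218, in a window inside the gene body of Psmb9 on the other strand. H2-T23 held GAAANNGAA at 123 to 115 and CCAAT at 52 to 48, Tapbp held CCAAT only, Psmb9 held TGACG and CCAAT, and the window of Psmb8 held no match. Of the 10 genes 8 had a window. A match describes letters in the window and was not tested as a site.

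The transporter genes differed in level and in transcript class. Tap1 (chr17:34187553-34197225, plus strand), a subunit of the ATP-driven transporter, had 190 TPM in library 1 and 121 in library 2. Its partner Tap2 (chr17:34203527-34216321, plus strand) had 76.1 TPM in library 1 and 40.6 in library 2, so every Tap1 value was above every Tap2 value. Tap2 was 28.6% of the sum of both genes in library 1 and 25.2% in library 2, although the subunits pair in the transporter. By protein-coding transcripts alone it was 10.5% and 8.9%. Tap2-202, annotated as a retained intron, held 79.3% of the TPM of Tap2 in library 1 and 79.1% in library 2. The coding transcript Tap2-201 held 15.2 TPM in library 1 and 8.49 in library 2. Tap1-206 led the coding transcripts of Tap1, with 95.6 and 48.8 TPM, followed by Tap1-201 with 38 and 35.4 TPM.

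Tap2-202 keeps intron 6 of the 11 introns of Tap2-201, and the transcript with most TPM of Psmb8 keeps intron 3 of the 6 introns of Psmb8-203. Both introns are printed, from the GENCODE M21 transcripts that hold them, and capitals mark the first and last 2 bases. The introns are not the only difference between these transcripts. Tap2-202 has 2561 nt against 3442 nt for Tap2-201, and Psmb8-205 has 1234 nt against 840 nt for Psmb8-203. Reads over the introns were not counted here, so the part of the introns in the transcript class was not tested.
Tap2 intron 6, chr17:34212068-34212229, plus strand, 162 nt: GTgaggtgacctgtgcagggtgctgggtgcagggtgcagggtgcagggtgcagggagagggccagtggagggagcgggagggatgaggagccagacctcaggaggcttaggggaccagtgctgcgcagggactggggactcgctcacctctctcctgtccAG
Psmb8 intron 3, chr17:34199381-34199570, plus strand, 190 nt: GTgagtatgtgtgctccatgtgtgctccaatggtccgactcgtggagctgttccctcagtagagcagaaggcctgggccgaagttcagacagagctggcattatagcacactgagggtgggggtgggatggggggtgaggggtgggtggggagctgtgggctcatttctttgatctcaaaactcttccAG
Each begins with GT and ends with AG.

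Tapbp (chr17:33915899-33929292, plus strand), the tapasin gene, had 541 TPM in library 1 and 346 in library 2, at percentile 99.5. Tapbp-206, a protein-coding transcript, held 85% of its TPM in both libraries, and 3.65% ± 0.338 (SD, n = 2) was in retained-intron transcripts. Its annotation overlaps Zbtb22 on the same strand, which had 626 counts in library 1 and 359 in library 2, against 25934 and 17980 for Tapbp.

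The immunoproteasome genes were the lowest of the 10. Psmb8 (chr17:34197721-34201454, plus strand), which encodes the subunit LMP7, had 41.4 TPM in library 1 and 26.2 in library 2, at percentile 86.8. Psmb9 (chr17:34181987-34187764, minus strand), which encodes LMP2, had 35.7 and 18.3 TPM, at percentile 83.5. Their library ranges overlapped. LMP7 takes the place of the constitutive subunit encoded by Psmb5, LMP2 that of Psmb6, and the third induced subunit, encoded by Psmb10, that of Psmb7. By TPM of all transcripts Psmb8 was 82.8% of its sum with Psmb5 in library 1 and 71.9% in library 2, Psmb10 was 85.4% and 77.7% of its sum with Psmb7, and Psmb9 was 27.8% and 21% of its sum with Psmb6. By protein-coding transcripts Psmb8 was 36.9% and 41.5%, Psmb10 63.3% and 58.2%, and Psmb9 36.1% and 25.3%. By kallisto TPM of protein-coding transcripts Psmb10 was 55.2% and 46.7%. By RSEM TPM Psmb10 was thus above its partner on both scales and Psmb9 below its partner on both, in both libraries, while Psmb8 was above or below Psmb5 according to whether retained-intron transcripts were counted. Psmb8-205, a retained-intron transcript, held 26.9 TPM in library 1 and 13.1 in library 2, and the coding transcript Psmb8-203 held 3.65 and 6.07 TPM. These coding levels rest on few reads, 49.8 and 85 expected counts for Psmb8-203.

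**Figure D2:**
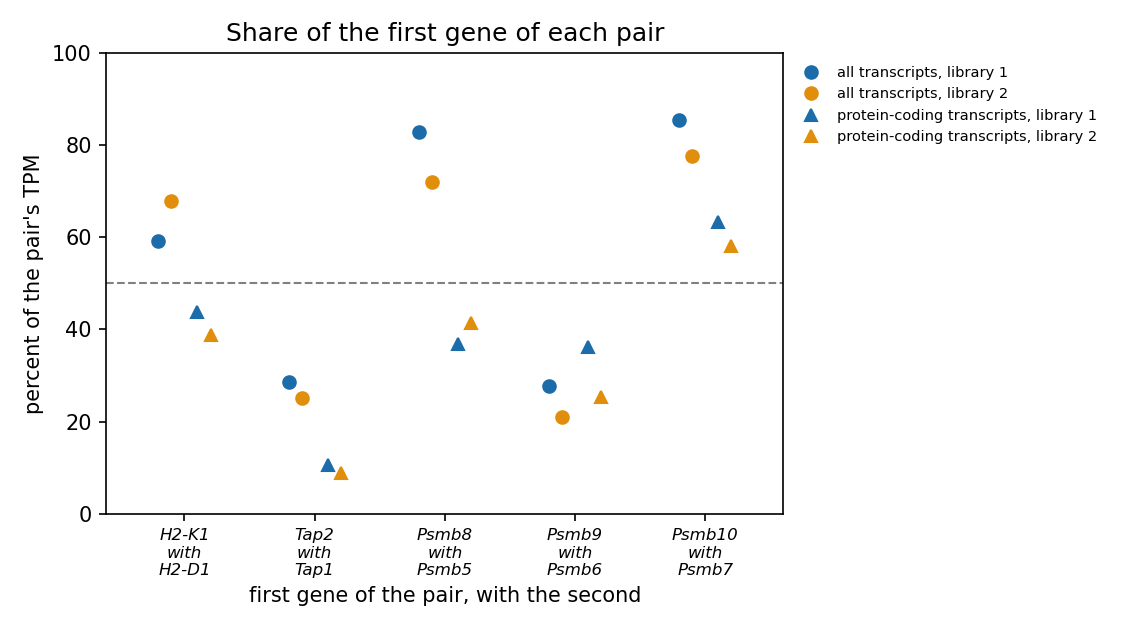
Share of a gene in the summed TPM of a pair, in percent, by all transcripts (circles) and by protein-coding transcripts (triangles), for library 1 and library 2; the dashed line is an equal share. H2-K1 and Psmb8 lie above the line by all transcripts and below it by protein-coding transcripts, while Tap2 and Psmb9 lie below it and Psmb10 above it on both scales of RSEM TPM.

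Nlrc5 (chr8:94434356-94527272, plus strand), the transactivator of class I genes, had 198 TPM in library 1 and 125 in library 2, at percentile 97.7, with ranges that overlapped those of Tap1. Its longest transcript, Nlrc5-207, has 7578 nt and 52 introns and held 34% of the TPM of the gene in library 1 and 27.6% in library 2. It held 77.1% and 72.9% of the counts of the gene. Nlrc5-203, annotated as a retained intron, held 27.6% and 31.7% of TPM, and 10.9% and 19.2% by kallisto TPM. It starts at the first base of intron 51, so it covers that intron but lacks the exon before it. Nlrc5-202, annotated as protein-coding, starts at the same base and had 0 TPM in both libraries. By protein-coding transcripts Nlrc5 had 77.1 TPM in library 1 and 39.4 in library 2.

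By mean TPM the order was H2-K1, H2-D1, B2m, Tapbp, H2-T23, Nlrc5, Tap1, Tap2, Psmb8 and Psmb9, and it was the same in both libraries. Neighbours whose library ranges overlapped, and which are therefore not separated, were Nlrc5 and Tap1, Tap2 and Psmb8, and Psmb8 and Psmb9. Kallisto TPM changed the order only at its end, with Psmb9 above Psmb8, both at 14.1 TPM in library 2. On that scale the ranges of more neighbours overlapped, among them H2-K1 and H2-D1. With protein-coding transcripts alone, H2-D1 led H2-K1, Tap1 stood above Nlrc5, and Psmb9 stood above Tap2, with Psmb8 last. There the ranges of H2-D1 and H2-K1 and those of Psmb9 and Tap2 overlapped. B2m, at 963 TPM, was above H2-K1, at 898 TPM, in library 2. The detected protein-coding genes closest to H2-K1 in log2(TPM + 1) over the 2 libraries were Psap, at 3913 and 3423 TPM, and mt-Nd5, at 2757 and 4424 TPM. The closest to Psmb9 were Brf1, at 35.8 and 18.4 TPM, and Gpr85, at 35.1 and 18.6 TPM.

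Retained-intron transcripts held very unequal parts of the pathway. Of the 10 genes 9 have an annotated transcript of this class, and their median share of TPM was 36.7%, while the median over 5058 protein-coding genes with such a transcript and 100 or more counts in both libraries was 24%. The share was 50% or more in 3 of the 9 genes, against 13.4% of the 5058 genes. Tap2 stood at 79.2% ± 0.159 (SD, n = 2), Psmb8 at 80% ± 11.1 and H2-K1 at 58.4% ± 17.1, at percentiles 98.8, 98.9 and 92.3 of those genes. Psmb9 followed at 42% ± 2.29, Nlrc5 at 36.7% ± 1.34, Tap1 at 28.6% ± 0.82 and H2-T23 at 20.6% ± 3.84. The share of Nlrc5 depended on the scale: it was 23.8% by kallisto TPM, where the median of the 5058 genes was 29.9%, and 16.2% by expected counts, where that median was 13%. By expected counts H2-K1 stood at 29.2% and Psmb9 at 57.9%, while Tap2 at 73.8% and Psmb8 at 84.6% kept over 50%, as they did by kallisto TPM at 69.6% and 78.9%. H2-D1, at 4.75% ± 0.921, and Tapbp, at 3.65% ± 0.338, lay at percentiles 9.29 and 7.2. In nuclear RNA a retained intron cannot be told from one not yet spliced out, and in H2-K1 most of the share came from H2-K1-215, which holds only 20 intronic bases.

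**Figure D3:**
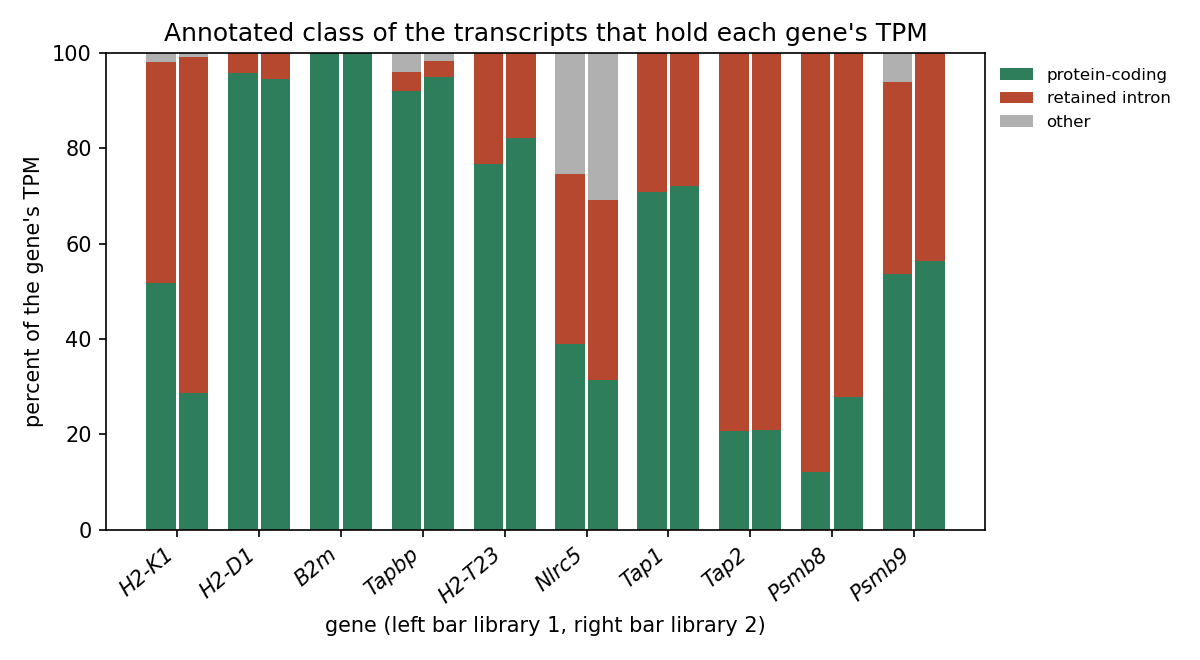
Percent of the TPM of each gene in protein-coding, retained-intron and other annotated transcripts, with library 1 as the left and library 2 as the right bar of each gene. Retained-intron transcripts take 79.3% and 79.1% of Tap2 and 87.9% and 72.2% of Psmb8, but 4.1% and 5.4% of H2-D1, and the share of H2-K1 differs most between the libraries, at 46.3% and 70.5%.

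Between the libraries, most of the pathway was relatively higher in library 1 by RSEM TPM, but not by kallisto TPM. The ratio used is log2((TPM + 1) in library 1 / (TPM + 1) in library 2), centred by subtracting 0.27, its median over detected protein-coding genes. By this ratio 8 of the 10 genes were higher in library 1, against 50% of detected protein-coding genes, and their median was 0.37, while the middle 50% of all genes lay between -0.24 and 0.26. With kallisto TPM 3 of the 10 genes were higher in library 1 and the median was -0.06. No gene of the 10 was over 2-fold apart, against 1.6% of detected protein-coding genes. Psmb9, at 0.65, and Tap2, at 0.62, were highest, followed by Nlrc5 at 0.39, Tap1 at 0.38, Tapbp at 0.37, Psmb8 at 0.36, H2-D1 at 0.28 and H2-T23 at 0.17. H2-K1 was at -0.26, and its sign depended on the scale, with 0.23 by TMM factors and 0.22 by DESeq2 size factors on expected counts. With 1 library on each side no test was possible, and the difference cannot be told apart from the RNA input.

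B2m stood apart from the other 9 genes. Its centred log2 ratio was -1.0, a 2-fold lower level in library 1, which placed it at percentile 0.737 of detected protein-coding genes. It was over 2-fold lower in library 1 with a pseudocount of 0.1 TPM (-1.07), with kallisto TPM (-1.22), with TMM factors (-1.05), with DESeq2 size factors (-1.06) and with a count minimum of 50 (-1.03), and without centring its ratio was -0.72. The 12 detected mitochondrial mRNAs moved the same way, with a median of -1.53, and their part in the B2m difference was not tested.

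**Figure D4:**
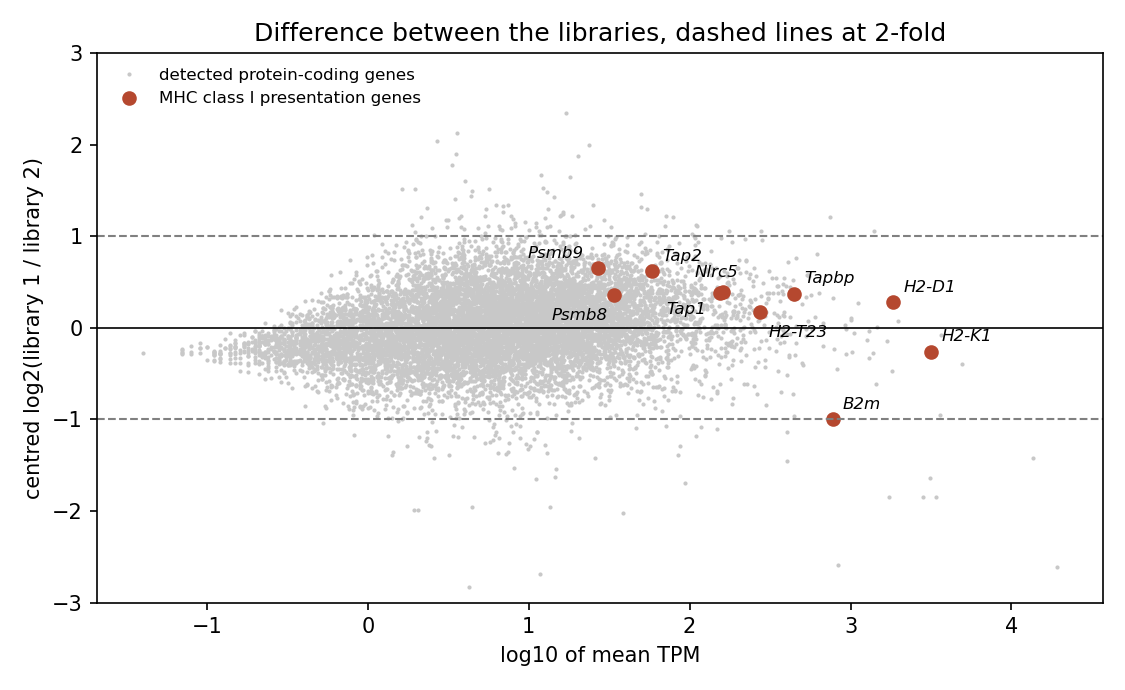
Centred log2 ratio of library 1 over library 2 against log10 of mean TPM, for all detected protein-coding genes (grey) and the 10 genes (red), with dashed lines at 2-fold. B2m lies at -1.0, H2-K1 at -0.26 and the other 8 genes between 0.17 and 0.65 by RSEM TPM, while with kallisto TPM 3 of the 10 genes were higher in library 1.

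Of the 10 genes 8 lie on chromosome 17, in or near the MHC region. The annotations of Psmb9 and Tap1 overlap by 212 nt at their 5′ ends on opposite strands. Whether strand entered the counting is not stated, so reads in such overlaps cannot be assigned with certainty. B2m lies within Patl2 on the opposite strand, which had 13 and 4 counts, and Tap2 overlaps Gm15821 on the opposite strand, which had 19.8 and 12.1 counts, both small beside the genes themselves. Nlrc5 overlaps 9330175E14Rik on the opposite strand by 748 nt, and that gene had 867 counts in library 1 and 481 in library 2, against 13815 and 7882 for Nlrc5.

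Other class I heavy chains and class I-like genes were mostly lower. Of 17 measured, 13 were detected and 5 lay in the top 10%, with a median of 12.4 TPM. The highest were H2-Q4, at 433 TPM in library 1 and 292 in library 2, H2-Q7, at 207 and 171 TPM, and H2-Q6, at 213 and 160 TPM. By protein-coding transcripts H2-Q4 had 348 and 254 TPM and H2-Q6 213 and 160, but H2-Q7 only 40.6 and 26.9. H2-Q6 and H2-Q7 encode closely related Qa-2 chains, so their reads may be divided with error. The lowest detected was Mr1, which presents microbial metabolites, at 2.37 and 3.43 TPM, and H2-Q1, H2-T3 and H2-M5 were listed at 0 in both libraries.

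The genes that load and trim peptides were all detected, 10 of 10, with 5 in the top 10% and a median of 46.6 TPM. The chaperone genes Calr and Canx had 182 and 124 TPM in library 1, against 169 and 130 TPM in library 2, and Hspa5, the gene of the luminal chaperone BiP, had 222 and 121 TPM. The lowest was Tapbpl, which encodes the tapasin-related editor TAPBPR, at 9.28 and 8.4 TPM. All 9 other proteasome subunit and activator genes were detected, with 4 in the top 10% and a median of 40.7 TPM. The highest were Psme2, an activator subunit, at 184 TPM in library 1 and 112 in library 2, Psmb6, at 92.6 and 68.7 TPM, and Psmb10, at 92.3 and 37.5 TPM. The lowest was Psmb5, at 8.6 and 10.3 TPM.

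Genes of transcription factors that act on class I promoters were detected in 17 of 17 cases, with 6 in the top 10% and a median of 27.6 TPM. Irf1, an interferon regulatory factor that binds the class I interferon response element, had 618 TPM in library 1 and 300 in library 2. Stat2, which transmits interferon receptor signals, had 307 and 169 TPM. The lowest was Rfxap, a subunit of the RFX complex of the SXY element, at 0.5 and 1.19 TPM.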

How the data were processed

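Ribosomal-RNA-depleted total RNA of nucleoplasm was sequenced in 2 libraries of 1 group. Each library came with 3 tables, whose columns have the layout of RSEM (genes and transcripts) and kallisto (transcripts). Notes beside the files name mm10 and GENCODE M21; for the aligner and its version, the sources used here give none. Expected counts (RSEM) and estimated counts (kallisto) are the authors' estimates and need not be whole. TPM was computed by the authors over all features of each table, per the file headers. The bounds of the TPM credibility interval, treated as a score, were deposited with no stated level. The percent of a gene's TPM in each transcript was deposited by the authors and recomputed here from transcript TPM.

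Genes were matched by gene identifier. Detection meant 10 or more expected counts in both libraries. Library ratios used log2(TPM + 1) and were centred on detected protein-coding genes. As alternatives, counts rounded to whole numbers were scaled with TMM factors (edgeR 4.0.16) or size factors (DESeq2 1.42.0) in R 4.3.3, without a test. The calculation of ratios was tested on simulated data. Wilson 95% intervals and the floor of 3 counts cover counting error only. Values are given with the SD over 2 libraries, and no p-value was computed, since there is 1 group. Every one of the 10 genes is named; of other lists, the 3 highest and the lowest detected genes, and for 1 high and 1 low gene the 2 closest in level. A gene that this rule would name is not reported here. The members, lists and motifs were chosen with earlier results of these data known. Alternatives were kallisto, posterior mean TPM, other count minimums, pseudocounts, scalings and leaving out a library; protein-coding transcripts alone, leaving out H2-K1-215 and expected counts for shares were added after seeing the data. Sequences came from GENCODE M21 transcripts and RefSeq (GRCm38.p6) promoters, where 8 of 10 genes had a window. Coding sequences were aligned globally in Biopython with a match score of 2 and a mismatch score of -3.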

Additional observations from a re-analysis of the deposited data

How the results depend on the processing

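No paired analysis was possible because the study has 1 group. With 2 libraries, leaving out either gives the value of the other, so it is no test of stability: the median percentile was 98.4 to 98.6, all 10 genes were detected, and the share of H2-K1-215 in H2-K1 was 29.6% to 63.6%. The median percentile, 98.5, was 97.8 with kallisto TPM, 98.2 with a count minimum of 50 and 98.7 with protein-coding transcripts alone, where 7 and not 8 of the 10 genes were in the highest 10%. The median centred log2 ratio of library 1 over library 2, 0.37, was -0.06 with kallisto TPM; the cause was not tested. It lay between 0.26 and 0.64 under the other alternatives. The count of genes over 2-fold apart, 0, was 1 with a pseudocount of 0.1 TPM, kallisto TPM, TMM factors, DESeq2 size factors or a count minimum of 50, and that gene was B2m each time. Under these settings, in that order, 4.74%, 0.892%, 1.62%, 1.64% and 1.56% of detected protein-coding genes were over 2-fold apart. With protein-coding transcripts alone, an alternative added after seeing the data, the share of H2-K1 was 41.4% in place of 63.5%, that of Tap2 9.69% in place of 26.9%, that of Psmb8 39.2% in place of 77.3%, that of Psmb9 30.7% in place of 24.4% and that of Psmb10 60.7% in place of 81.6%; this scale leaves out retained-intron and all other non-coding transcripts of both genes, and their separate parts were not tested. With expected counts, also added later, the share of H2-K1 was 45.3%. By TPM without H2-K1-215, whose counts were dropped and not reassigned, it was 46.9%. Of 29 levels and transcript shares of single genes, 20 moved by more than the library spread with kallisto TPM. These include all 10 levels, each of which was lower by kallisto TPM. The 8 macrophage markers were lower by kallisto TPM too, so this is not particular to the 10 genes. With expected counts 8 of 9 retained-intron shares moved by more than that spread, and with posterior means 1 of the 10 levels. Rescaled over nuclear protein-coding genes all 10 levels did, but this was fixed in advance, since the rescaling raises every level. The main limits are the 2 libraries, with unequal RNA input and mitochondrial share, and the few counts behind coding transcripts of Psmb8. Another is the division of reads among heavy chain genes with similar sequences and among short transcripts.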

Other observations

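MHC class II genes, whose products present peptides of ingested proteins, were measured for comparison and each stood below H2-K1, H2-D1 and H2-T23 by mean TPM. All 6 were detected, 3 of them among the highest 10%, with a median of 48.1 TPM. Cd74, the invariant chain gene, had 235 TPM in library 1 and 194 in library 2, H2-Ab1 had 66.9 and 63.8 TPM, and H2-Aa had 57.1 and 58.3 TPM. The library ranges of Cd74 and H2-T23 overlapped, so these genes are not separated. Cd74, with a mean of 214 TPM, stood above Nlrc5, Tap1, Tap2, Psmb8 and Psmb9 by mean TPM. The lowest was H2-DMb1, a chain of the peptide editor H2-DM, at 9.49 and 8.74 TPM.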
